A study of Mus musculus with 9 samples.

Results

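The genes described here encode the enzymes that make urea and those that move ammonia into and out of glutamate and glutamine. They were chosen by name, as the spots of a mouse array whose single gene symbol was Cps1, Otc, Ass1, Asl, Arg1, Arg2, Nags, Glud1, Glul or Gls2. Of these 10 genes, 8 had a named spot, 1 each, among 15096 genes with a single symbol on the array. Nags and Gls2 had none and were not analysed here. The study hybridised RNA of the inbred strain SJL/J against RNA of the inbred strain C57BL/6J for whole brain, whole kidney and whole liver. For each tissue, RNA of 5 male mice aged 8 weeks was pooled per strain, and the same pair of pools was hybridised to 3 arrays. SJL/J always carried one dye of the Alexa Fluor pair and C57BL/6J the other, with no dye swap, so a dye effect and a strain effect cannot be told apart within a tissue. The label of the SJL/J channel gives brain as the tissue of the kidney and liver arrays, but groups were taken from the titles, with which the C57BL/6J channel's labels accord. Each strain is represented by 1 pool per tissue. The SDs and p-values below therefore measure the spread between arrays of the same RNA, not between mice. The test of a ratio shared by the tissues is the exception. Its p-values measure the spread between tissue means, again not between mice.

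All values are log2 ratios of SJL/J over C57BL/6J, so that 1 is a doubling in SJL/J. The base and the direction of the deposited ratios are likely rather than stated. Nnt, which encodes a mitochondrial transhydrogenase and has lost exons in C57BL/6J, read above 0 on 9 of 9 arrays (0.15 to 1.06), the sign that SJL/J over C57BL/6J would give. Ratios carry no level, so neither the abundance of an enzyme in a tissue nor the labelled tissue could be checked against its markers, and probes near background could not be set aside. "Higher" and "lower" mean an adjusted p below 0.05 in a limma fit over 21262 features (genes and unnamed spots), with Benjamini-Hochberg adjustment over all of them. In bulk tissue, fewer cells of a type and less RNA per cell cannot be told apart.

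Ammonia set free by amino acid breakdown is fixed in liver mitochondria by CPS1, and OTC joins the product to ornithine to give citrulline. In the cytosol ASS1 and ASL turn citrulline and aspartate into arginine, and arginase 1 splits arginine into urea and ornithine. Glutamate feeds this route: GLUD1 releases ammonia from it in mitochondria, and glutamine synthetase (Glul) captures ammonia that escapes, in the last hepatocytes before the central vein. Outside the liver, kidney makes arginine with ASS1 and ASL, and astrocytes make glutamine with glutamine synthetase. Arginase 2 is a mitochondrial arginase of kidney and other tissues.

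Promoter sequences are shown for members that differed between the strains in liver, where Otc, Glud1 and Glul were lower and Ass1 was higher in SJL/J. RefSeq (GRCm38.p6) promoter entries matched 4 of the 8 measured members, those of Otc (chrX:10252055-10252304), Ass1 (chr2:31470020-31470269), Glud1 (chr14:34310477-34310726) and Glul (chr1:153899679-153899928). Each is shown on the plus strand, 5′ to 3′, as the 250 bases before the gene's start, with motif matches in capitals.
Otc promoter: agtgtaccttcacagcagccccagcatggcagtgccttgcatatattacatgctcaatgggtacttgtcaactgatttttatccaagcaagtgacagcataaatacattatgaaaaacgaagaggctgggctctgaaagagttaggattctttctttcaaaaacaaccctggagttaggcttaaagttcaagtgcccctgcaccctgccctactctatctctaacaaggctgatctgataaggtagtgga
Ass1 promoter: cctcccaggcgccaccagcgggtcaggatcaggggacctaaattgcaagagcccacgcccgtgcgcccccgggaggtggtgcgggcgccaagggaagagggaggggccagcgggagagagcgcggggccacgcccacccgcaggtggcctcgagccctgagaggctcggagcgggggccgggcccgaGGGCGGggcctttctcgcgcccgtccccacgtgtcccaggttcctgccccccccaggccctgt
Glud1 promoter: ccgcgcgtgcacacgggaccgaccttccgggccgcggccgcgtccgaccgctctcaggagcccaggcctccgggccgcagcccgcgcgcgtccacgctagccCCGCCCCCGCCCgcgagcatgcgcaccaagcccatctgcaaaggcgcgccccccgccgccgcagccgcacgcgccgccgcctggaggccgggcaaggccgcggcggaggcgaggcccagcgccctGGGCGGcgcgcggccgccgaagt
Glul promoter: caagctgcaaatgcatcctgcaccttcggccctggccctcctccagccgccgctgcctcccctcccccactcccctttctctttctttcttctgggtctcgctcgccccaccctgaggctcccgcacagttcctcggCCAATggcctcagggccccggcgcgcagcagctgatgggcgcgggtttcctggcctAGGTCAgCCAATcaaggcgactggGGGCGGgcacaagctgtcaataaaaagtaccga
The capitals mark matches, on either strand, to 7 motifs: TATAAA (for the TATA box), CCAAT (for the CCAAT box), GGGCGG (for the GC box), TGACGTCA (cyclic AMP response element), TTGCNNAA (for C/EBP factors), CAAAGTCCA (for HNF4) and AGGTCA (nuclear receptor hexamer). The Otc window held no match, and its GC content was 43.6% with 1 CG dinucleotide. The other windows were GC-rich, at 75.6% (Ass1), 82.0% (Glud1) and 64.8% (Glul), against a median of 52.4% over 32851 promoters. Ass1 held 1 GC box and Glud1 held 3, of which the first and second, on the reverse strand, lie end to end. Glul held 2 CCAAT boxes, 1 GC box and 1 nuclear receptor hexamer. These are common letters: 32.7% of all promoter windows of this length held the GC box, 33.8% the CCAAT box and 14.0% the hexamer. The motifs without a match were held by 12.4% (TATA box), 1.55% (cyclic AMP response element), 9.56% (C/EBP) and 0.384% (HNF4) of the windows. The letters thus differ between Otc and both Glud1 and Glul, and a match or its absence is a description of the window alone.

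A pattern that followed the probe numbers, called the print pattern here, touched 4 of the 8 members. Whether it arose in printing was not tested. Spots whose probe number is a multiple of 8 read low in every tissue, with medians over 2182 spots of named genes of -0.16 (brain), -0.34 (kidney) and -0.22 (liver), against 0.02, 0.06 and 0.00 over 14692 other spots. In kidney 49.0% of the former and 8.77% of the latter were lower. The only spots of Ass1, Arg1, Arg2 and Glul lie at such numbers, and those of Cps1, Otc, Asl and Glud1 do not. Results of the first group are therefore also given with these spots shifted to the median of the others, and with the medians of print lines and columns removed, where that moves them. The third brain array stood apart: its ratios correlated at 0.52 to 0.57 with the other brain arrays and at 0.58 to 0.63 with the kidney arrays, over all spots. Brain values of the members and of the list genes named as called are therefore also given without it.

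**Figure D1:**
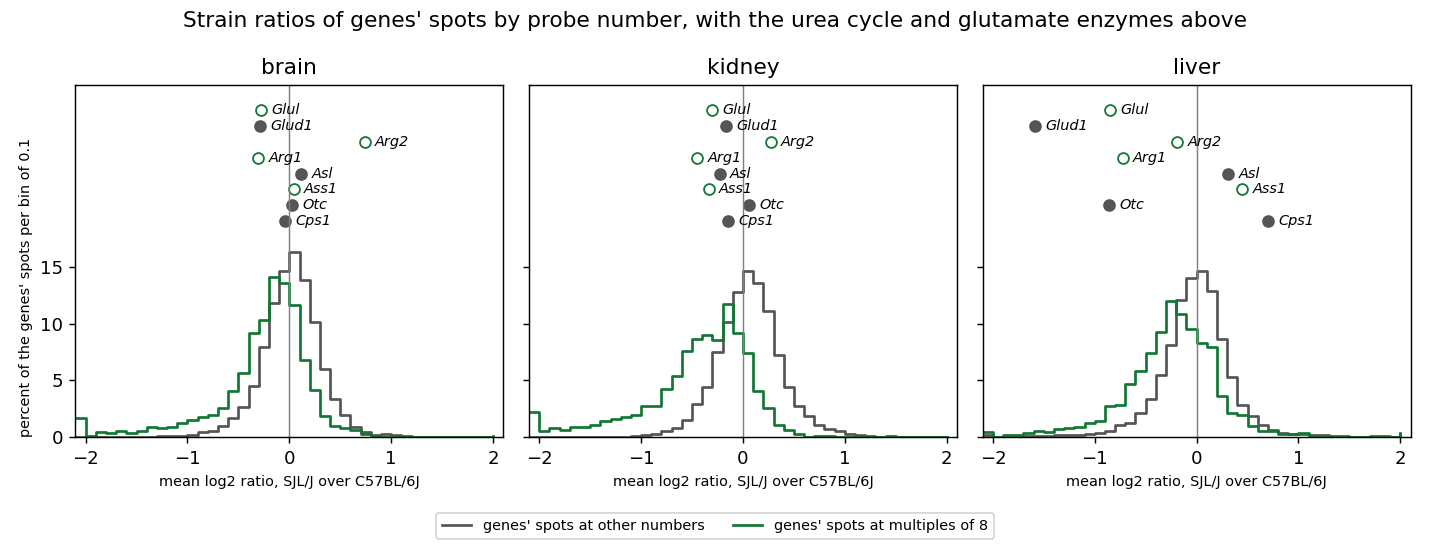
Distribution of mean log2 ratios (x axis, SJL/J over C57BL/6J; values beyond -2 or 2 are in the end bins) of named genes' spots at multiples of 8 (green) and at other numbers (grey), as percent of spots per bin of 0.1, in 3 tissues. Circles above give the 8 enzymes, open where the spot is at a multiple of 8; the green curve lies to the left in each tissue, furthest in kidney, where its median is -0.34.

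In liver, as deposited, members of the 2 pathways were called in both directions, also within the urea cycle. Glud1, Otc, Glul and Arg1 were lower in SJL/J liver, whereas Cps1 and Ass1 were higher. Thus 4 of 8 members were lower, where 12.2% of all features were, and 2 of 8 were higher, where 13.2% of all features were. At multiples of 8, where Arg1, Glul and Ass1 lie, 32.4% of named genes' spots were lower in liver and 5.59% higher. At other numbers the shares were 11.4% and 10.6%. The Arg1 call was lost with these spots shifted (adjusted p = 0.106 by limma) and with lines and columns removed (adjusted p = 0.613 by limma). In brain only Arg2 was called, and it was higher: 1 of 8 members, against 10.7% of all features higher and, for 0 of 8 members, 9.96% lower. In kidney only Ass1 was called, as lower, which is 1 of 8 members against 14.6% of all features, and 0 of 8 members were higher against 15.1%. At an unadjusted p below 0.05, limma found 0 members lower in brain and 1 higher in kidney, Arg2. The counts in brain and kidney are thus near those of the array as a whole. The members' median was -0.46 in liver, -0.20 in kidney and -0.01 in brain, and the median of all named genes was -0.02, 0.03 and 0.01. The members' medians include the low-reading spots at multiples of 8 and were not taken again with those spots shifted. How far they reflect the strains rather than spot position was not tested.

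**Figure D2:**
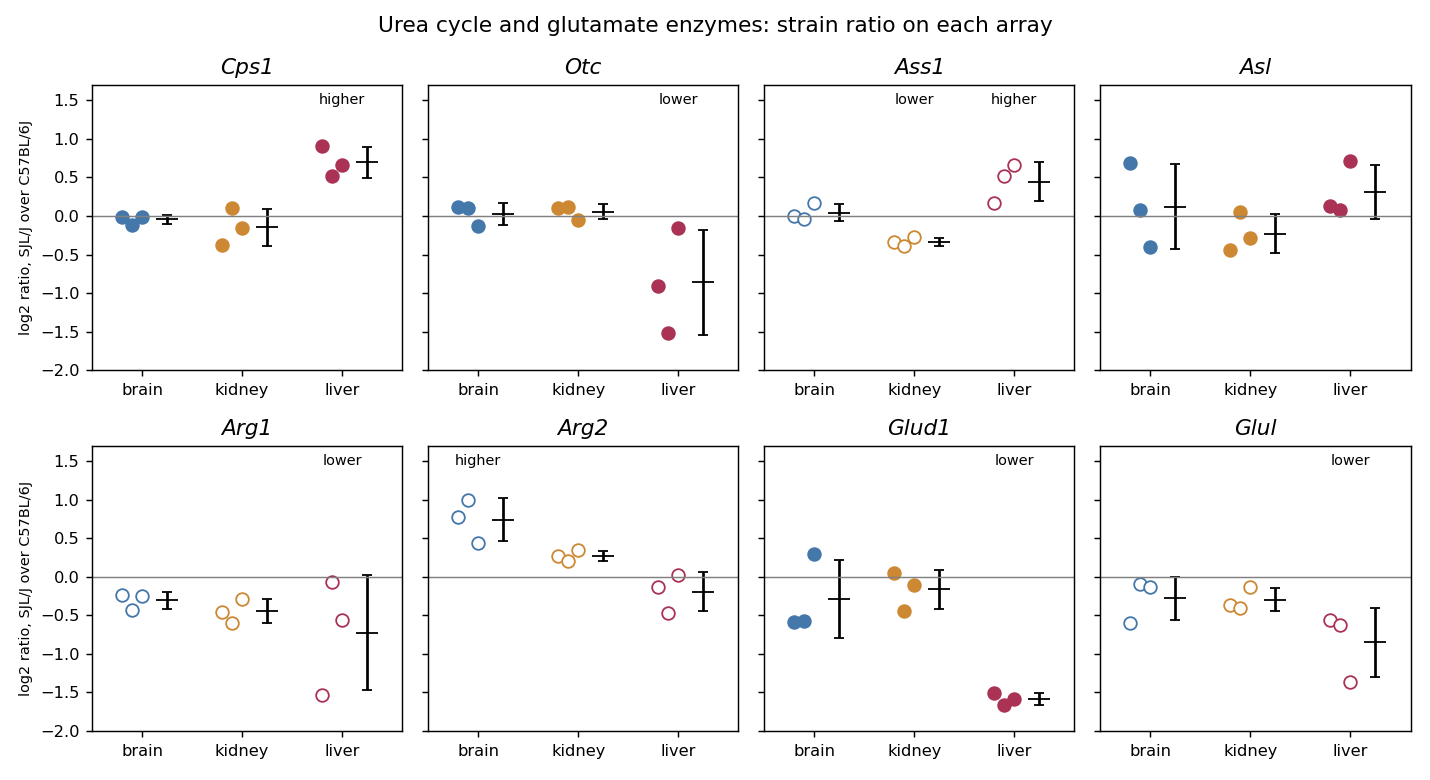
Log2 ratio (SJL/J over C57BL/6J) of each enzyme on each of 9 arrays, 3 per tissue, with the mean and SD of the 3 arrays in black. Open circles mark spots at multiples of 8, and "higher" or "lower" marks an adjusted p below 0.05 by limma; the 3 liver arrays of Glud1 lie between -1.67 and -1.51, below all its brain and kidney arrays.

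Cps1, whose product commits ammonia to urea, was higher in SJL/J liver and near 0 elsewhere. Its liver arrays read 0.91, 0.52 and 0.66, its kidney arrays -0.38, 0.10 and -0.16, and its brain arrays -0.01, -0.12 and -0.01. All 3 liver arrays lay above all 6 others. The liver mean of 0.70 ± 0.20 (SD, n = 3 arrays; 95% confidence interval 0.46 to 0.94) is a ratio of 1.62, with an adjusted p of 0.00140. The kidney mean of -0.15 ± 0.24 (adjusted p = 0.338) and the brain mean of -0.05 ± 0.06 (adjusted p = 0.801) did not pass the test, and without the third brain array the brain mean was -0.06.

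Otc, the next enzyme of the cycle, went the other way in liver. It read -0.91, -1.51 and -0.16 on the liver arrays, 0.10, 0.12 and -0.05 on the kidney arrays and 0.11, 0.11 and -0.13 on the brain arrays. The liver arrays were all below the others, but they disagreed with one another, and the third nearly met the lowest brain array. The liver mean was -0.86 ± 0.68 (interval -1.29 to -0.43; adjusted p = 0.00967), that is 1.82 times more in C57BL/6J. Without the first liver array it was -0.84 (adjusted p = 0.0556) and without the second -0.53 (adjusted p = 0.0573). Kidney (0.06 ± 0.09) and brain (0.03 ± 0.14, or 0.11 without the third array) stayed close to 0.

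Ass1, which condenses citrulline with aspartate, was higher in SJL/J liver. Its liver arrays read 0.17, 0.52 and 0.66, its kidney arrays -0.34, -0.39 and -0.28, and its brain arrays 0.00, -0.04 and 0.17. Liver and kidney did not overlap, and brain lay between them, touching the lowest liver array; without the third brain array the brain mean was -0.02. The liver mean of 0.45 ± 0.25 (interval 0.22 to 0.67; adjusted p = 0.0103) is a ratio of 1.36. It was 0.66 with the print spots shifted and 0.85 with lines and columns removed, and it missed the threshold without the second (0.41, adjusted p = 0.0608) or the third liver array (0.34, adjusted p = 0.0856). The kidney mean of -0.34 ± 0.06 (adjusted p = 0.0322) depended on the print pattern: it turned to 0.06 with the spots shifted (adjusted p = 0.689) and to 0.06 with lines and columns removed (adjusted p = 0.690). It also missed the threshold without any 1 of the 3 kidney arrays (-0.37 to -0.31, adjusted p = 0.0876 to 0.142).

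Asl, which releases arginine, was the urea cycle gene with no call in any tissue. It read 0.13, 0.08 and 0.72 in liver, -0.44, 0.05 and -0.29 in kidney and 0.69, 0.07 and -0.41 in brain. Arrays of one tissue spread as widely as the tissues did, and all 3 overlapped except liver with kidney. The liver mean was 0.31 ± 0.35 (interval -0.12 to 0.74; adjusted p = 0.275). Its print line had medians of 0.15, 0.35 and 0.71 on the liver arrays, and with lines and columns removed the liver mean was -0.09. Kidney gave -0.23 ± 0.25 (adjusted p = 0.411) and brain 0.12 ± 0.55 (adjusted p = 0.704), which without the third brain array was 0.38 and did not pass (adjusted p = 0.195).

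Arg1, the arginase of the cycle, read below 0 on 9 of 9 arrays: -1.54, -0.07 and -0.56 in liver, -0.46, -0.60 and -0.29 in kidney, and -0.23, -0.43 and -0.25 in brain. The tissues overlapped, and the liver arrays spanned more than all the others together. The liver mean of -0.72 ± 0.74 (interval -1.19 to -0.26; adjusted p = 0.0300) rested mainly on the first array, without which it was -0.32 (adjusted p = 0.163). Without the third it was -0.80 (adjusted p = 0.0793). It was also lost with the print spots shifted (-0.51, adjusted p = 0.106), with lines and columns removed (-0.18, adjusted p = 0.613) and with liver fitted alone (-0.72, adjusted p = 0.0913). Kidney (-0.45 ± 0.16, adjusted p = 0.137) and brain (-0.30 ± 0.11, adjusted p = 0.334) did not pass, and with the spots shifted they were -0.05 and -0.09. Without the third brain array the brain mean was -0.33 (adjusted p = 0.410). The kidney mean passed with kidney fitted alone (adjusted p = 0.0201) and without the first liver array, through the spread the tissues share (adjusted p = 0.0196).

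Arg2, the mitochondrial arginase, was higher in SJL/J brain. Its brain arrays read 0.78, 1.0 and 0.44, its kidney arrays 0.27, 0.21 and 0.34, and its liver arrays -0.14, -0.46 and 0.03. The 3 tissues did not overlap, with brain highest and liver lowest. The brain mean of 0.74 ± 0.28 (interval 0.47 to 1.01; adjusted p = 0.00267) is a ratio of 1.67. It was 0.89 without the third brain array (adjusted p = 0.00159), 0.95 with the print spots shifted and 1.03 with lines and columns removed. The kidney mean of 0.27 ± 0.07 missed the threshold (adjusted p = 0.121) and passed it at 0.67 with the spots shifted (adjusted p = 0.00427) and at 0.59 with lines and columns removed (adjusted p = 0.0182). The liver mean was -0.19 ± 0.25 (adjusted p = 0.281). It turned to 0.02 with the spots shifted (adjusted p = 0.920 by limma) and to 0.09 with lines and columns removed (adjusted p = 0.703 by limma).

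Of the glutamate enzymes, Glud1 showed the lowest ratio of all members. Glutamate dehydrogenase stands at the branch where glutamate gives up ammonia in mitochondria. Its liver arrays read -1.51, -1.67 and -1.58, its kidney arrays 0.05, -0.44 and -0.11, and its brain arrays -0.59, -0.58 and 0.30. The liver arrays agreed closely and lay far below the rest, while the third brain array opposed the other two. The liver mean of -1.59 ± 0.08 (interval -1.95 to -1.22; adjusted p = 0.000127) means 3.0 times more in C57BL/6J, and it was -1.44 with lines and columns removed. In brain the mean was -0.29 ± 0.51 (adjusted p = 0.240), and without the third array it was -0.58 and called lower (adjusted p = 0.00970). The kidney mean was -0.17 ± 0.25 (adjusted p = 0.485).

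Glul, glutamine synthetase, was lower in SJL/J liver as well. It read -0.56, -0.62 and -1.37 in liver, -0.37, -0.40 and -0.13 in kidney and -0.60, -0.10 and -0.14 in brain. All 9 arrays were below 0, liver lay below kidney without overlap, and 1 brain array reached into the liver range. The liver mean was -0.85 ± 0.45 (interval -1.20 to -0.50; adjusted p = 0.00374), or 1.80 times more in C57BL/6J, and it was -0.64 both with the print spots shifted and with lines and columns removed, lower in each. In kidney (-0.30 ± 0.15, adjusted p = 0.182) and brain (-0.28 ± 0.28, adjusted p = 0.240) the mean did not pass, and with the spots shifted it was 0.10 and -0.07. Without the third brain array the brain mean was -0.35 (adjusted p = 0.235).

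**Figure D3:**
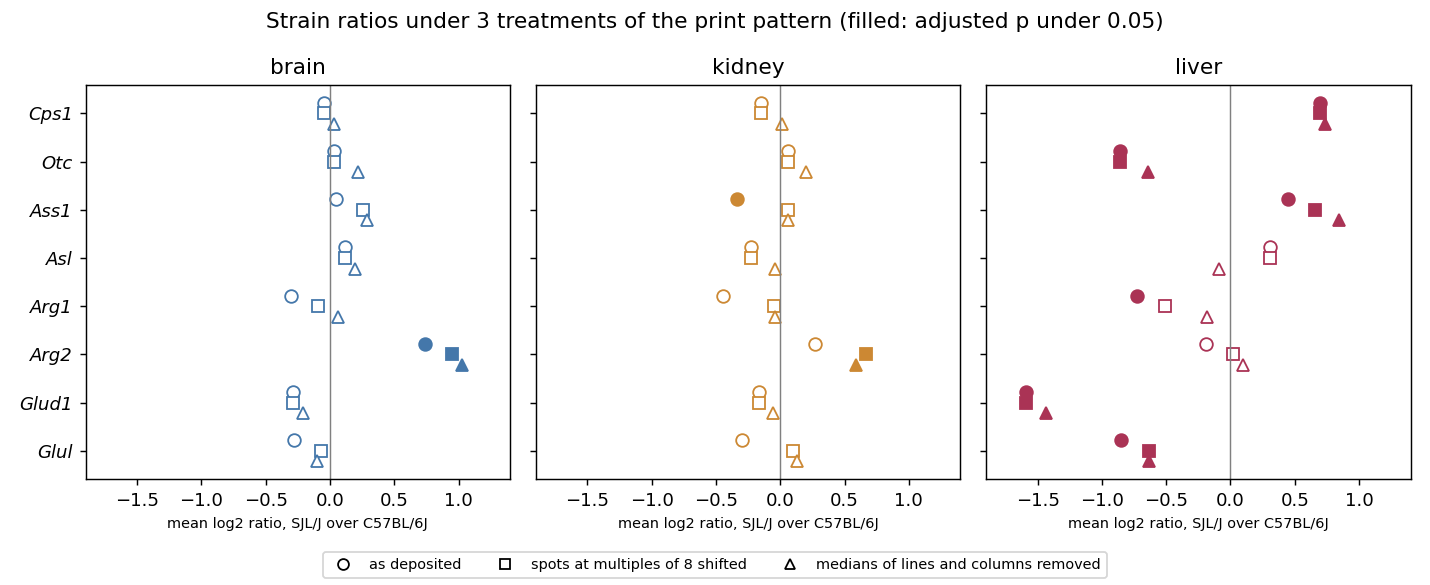
Mean log2 ratio (x axis, SJL/J over C57BL/6J) of the 8 enzymes (rows) in each tissue as deposited (circles), with spots at multiples of 8 shifted (squares) and with medians of print lines and columns removed (triangles); filled symbols have an adjusted p below 0.05 by limma. Cps1, Glud1, Otc, Glul and Ass1 in liver and Arg2 in brain are filled in all 3, Arg1 in liver only as deposited, and Ass1 in kidney moves from -0.34 to 0.06.

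A difference of the strain ratio between tissues cancels any dye or probe effect that the tissues share. Liver differed from kidney in 4 of 8 members, with 19.2% of all features differing, and from brain in 3 of 8, with 9.37% of all features differing. Kidney and brain differed in 0 of 8 members, with 5.33% of all features, and at an unadjusted p below 0.05 by limma in 2, Ass1 and Arg2. Without the third brain array Arg2 differed between kidney and brain by -0.62. With all arrays it was -0.47 (adjusted p = 0.131 by limma), and -0.44 with lines and columns removed (adjusted p = 0.234 by limma). With the print spots shifted its means lay closer, at 0.67 in kidney and 0.95 in brain. The test for any dependence on tissue was passed by 4 of 8 members, Cps1, Ass1, Arg2 and Glud1 (adjusted p = 0.00885, 0.0134, 0.0137 and 0.00519), against 20.5% of all features; Otc missed it at 0.0524.

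Cps1 and Glud1 set liver apart from both other tissues, in opposite directions. For Cps1 the liver ratio exceeded that of kidney by 0.85 (interval 0.50 to 1.19; adjusted p = 0.00565) and that of brain by 0.74 (interval 0.40 to 1.09; adjusted p = 0.0165). The latter missed the threshold without the second brain array (0.71, adjusted p = 0.0541) or the first liver array (0.64, adjusted p = 0.0615). For Glud1 the liver ratio minus that of kidney was -1.42 (interval -1.94 to -0.90; adjusted p = 0.00349) and minus that of brain -1.30 (interval -1.82 to -0.78; adjusted p = 0.00874), the latter -1.0 without the third brain array (adjusted p = 0.00562). Ass1 differed between liver and kidney by 0.78 (interval 0.46 to 1.11; adjusted p = 0.00593), while its liver ratio minus that of brain, 0.40, did not pass (interval 0.08 to 0.72; adjusted p = 0.108) and passed with lines and columns removed (0.56, adjusted p = 0.0363). The print pattern was not of equal size in liver and kidney, so it need not cancel in their difference. For Ass1 that difference kept its call under all alternatives. It was lowest, at 0.60, with the print spots shifted, when the kidney ratio was 0.06. Arg2 differed between liver and brain by -0.93 (interval -1.32 to -0.55; adjusted p = 0.00986), and its kidney ratio lay between and differed from neither beyond the threshold (adjusted p = 0.0861 against liver and 0.131 against brain). Without the third brain array both passed (adjusted p = 0.0449 and 0.0363), and against liver it also passed with the print spots shifted (-0.65, adjusted p = 0.0331). With lines and columns removed neither passed (adjusted p = 0.134 against liver and 0.234 against brain, by limma).

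Otc and Glul gave less settled differences. Otc in liver minus kidney was -0.92 (interval -1.53 to -0.31; adjusted p = 0.0420), and its liver minus brain was -0.89 (interval -1.50 to -0.28; adjusted p = 0.0697), and -1.24 without the third liver array (adjusted p = 0.00751). The first of these missed the threshold with the replicate number as a block (adjusted p = 0.0614), with lines and columns removed (-0.84, adjusted p = 0.0641) and without any 1 of 7 of the 9 arrays, at up to an adjusted p of 0.107. Glul in liver minus kidney was -0.55 (interval -1.05 to -0.05; adjusted p = 0.112), and it passed with the print spots shifted (-0.74, adjusted p = 0.0362) or lines and columns removed (-0.76, adjusted p = 0.0260). Asl and Arg1 differed between no pair of tissues, with intervals of -0.07 to 1.15 for Asl and -0.94 to 0.38 for Arg1 in liver minus kidney.

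When each tissue counted once, 0 of 8 members had a ratio shared by the tissues in the limma fit, against 3.92% of all features. At an unadjusted p below 0.05 there were 2 members, Arg1 (mean -0.49, unadjusted p = 0.00930, adjusted p = 0.125) and Glul (mean -0.48, unadjusted p = 0.0222, adjusted p = 0.191), and 3888 of 21262 features. Both have their spot at a multiple of 8.

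The genes that feed or drain the cycle were read from lists of names, whose counts stand beside the shares of all features given above and the medians of all features, 0.01 in brain, 0.03 in kidney and 0.02 in liver. The list of ornithine and arginine use holds the mitochondrial ornithine carriers, the arginine transporters and the enzymes that make proline, creatine, polyamines and nitric oxide. In liver 5 of its 20 measured genes were lower and 1 was higher, with a median of -0.13. The direction of that median was not kept: with lines and columns removed it was 0.0094 (6 lower, 2 higher), and with the print spots shifted -0.04 (4 lower, 2 higher). Oat, ornithine aminotransferase, which drains ornithine towards glutamate, read -2.59, -2.51 and -2.63 in liver (mean -2.58 ± 0.06, adjusted p = 2.59e-06), and between -0.47 and 0.46 on the 6 other arrays. Slc7a2, a transporter of arginine and other cationic amino acids, had a liver mean of -1.15 ± 0.29 (adjusted p = 7.98e-05), but its 2 probes gave -0.21 and -2.09. Slc25a13, the aspartate/glutamate carrier that supplies aspartate to Ass1, had -0.68 ± 0.40 (adjusted p = 0.00739) from a spot at a multiple of 8, which was lost with it shifted (-0.46, adjusted p = 0.0555) and with lines and columns removed (-0.32, adjusted p = 0.169).

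In brain 4 of the same 20 genes were lower and 0 were higher (0 also at an unadjusted p below 0.05 by limma), with a median of -0.17. Without the third brain array 7 were lower and the median was -0.15. The median was -0.07 with the print spots shifted (4 lower) and near 0, at -0.0073, with lines and columns removed (3 lower). Ddah1, which breaks down methylated arginines, had -1.13 ± 0.54 (adjusted p = 0.00610; spot at a multiple of 8), and -1.44 without the third array. It was -0.92 both with its spot shifted (adjusted p = 0.0145 by limma) and with lines and columns removed (adjusted p = 0.0149 by limma). Gatm, which uses arginine for creatine, read -1.41, -1.23 and -0.38 (mean -1.01 ± 0.55, adjusted p = 0.00354), so that array 3 was well above the others, and the mean without it was -1.32. Nos3, the endothelial nitric oxide synthase, had -0.48 ± 0.39 (adjusted p = 0.0280). It was -0.70 without the third array and missed the threshold with lines and columns removed (-0.47, adjusted p = 0.0517). In kidney 2 were higher and 1 was lower, with a median of 0.04. Slc25a15, the ornithine carrier of mitochondria, had -0.74 ± 0.13 in kidney (adjusted p = 0.000278) at a multiple of 8. It was -0.34 with its spot shifted (adjusted p = 0.0204 by limma) and -0.24 with lines and columns removed (adjusted p = 0.133). Prodh, the first enzyme of proline breakdown, had 0.54 ± 0.09 (adjusted p = 0.00352), and Azin1, the antizyme inhibitor, 0.27 ± 0.07 (adjusted p = 0.0480), from 2 probes at 0.49 and 0.05. Azin1 missed the threshold with lines and columns removed (0.17, adjusted p = 0.198) and with the print spots shifted (0.27, adjusted p = 0.0510).

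The list of transamination and ammonia release holds genes that pass nitrogen to glutamate or free it as ammonia. It also holds genes of glycine and serine use that do neither, such as Glyat and Shmt2. In liver 7 of 15 were lower and 0 higher (9 and 0 at an unadjusted p below 0.05 by limma), with a median of -0.41 and with all 15 means below 0. With lines and columns removed 3 were lower and the median was -0.27. The shared sign was then lost, with Bcat2 at 0.48 and Got2 at 0.06. Glyat, glycine N-acyltransferase, had -0.86 ± 0.13 (adjusted p = 0.00133; spot at a multiple of 8), Gldc of the glycine cleavage system -0.68 ± 0.57 (adjusted p = 0.0167) and the branched-chain aminotransferase Bcat1 -0.64 ± 0.10 (adjusted p = 0.00144), the last -0.27 with lines and columns removed (adjusted p = 0.126). In kidney more genes of the list were higher than lower, with 4 of 15 higher and 2 lower, though its median was 0.04. Shmt2, the mitochondrial serine hydroxymethyltransferase, had 0.99 ± 0.21 (adjusted p = 0.000235), the alanine aminotransferase Gpt 0.90 ± 0.52 (adjusted p = 0.00280) and Bcat2 0.65 ± 0.50 (adjusted p = 0.0147). In brain 1 gene was lower and 0 higher (3 and 0 at an unadjusted p below 0.05 by limma), Glyat at -0.55 ± 0.41 (adjusted p = 0.0169), which missed the threshold with its spot shifted (-0.34, adjusted p = 0.0797), with lines and columns removed (-0.27, adjusted p = 0.195) and without the third brain array (-0.48, adjusted p = 0.0618).

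Genes that use glutamate and glutamine include the first steps of glutathione, hexosamine, nucleotide and GABA metabolism. In liver 4 of 15 were lower and 2 higher, with a median of -0.20, which turned to 0.04 with lines and columns removed (3 lower, 2 higher). Gclc, the catalytic subunit of glutamate-cysteine ligase, read -0.58, -1.69 and -0.62 (mean -0.96 ± 0.63, adjusted p = 0.00366). Gfpt1, which starts hexosamine synthesis, had 0.59 ± 0.17 (adjusted p = 0.00693) and Abat, GABA transaminase, 0.54 ± 0.32 (adjusted p = 0.0156). In kidney 4 of 15 were higher and 1 lower, with a median of 0.17: Ctps2, a CTP synthase, had 0.78 ± 0.26 (adjusted p = 0.000522) and Abat 0.56 ± 0.30 (adjusted p = 0.0117). Gad2, a glutamate decarboxylase, had -0.57 ± 0.08 in kidney (adjusted p = 0.00955), from 2 probes at -0.19 and -0.94, the latter at a multiple of 8. It missed the threshold with the print spots shifted (-0.37, adjusted p = 0.0584) and with lines and columns removed (-0.37, adjusted p = 0.0541). In brain 0 of 15 passed in either direction by limma, with a median of 0.09; 1 was higher and 1 lower at an unadjusted p below 0.05, and also, after adjustment, without the third brain array.

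Among glutamate and glutamine transporters 1 of 17 was lower and 1 higher in liver, Slc38a4 at -0.83 ± 0.19 (adjusted p = 0.000622; 2 probes at -1.06 and -0.61) and Slc38a3, a glutamine transporter of hepatocytes, at 0.36 ± 0.08 (adjusted p = 0.0440). Their median was -0.08. In kidney 4 of 17 were lower and 0 higher (5 and 0 at an unadjusted p below 0.05 by limma), led by Slc3a2, the heavy chain of several amino acid exchangers (-0.61 ± 0.22, adjusted p = 0.00339), Slc17a7 (-0.48 ± 0.10, adjusted p = 0.0116; -0.08 with its spot shifted) and Slc25a18 (-0.42 ± 0.06, adjusted p = 0.0115). In brain 3 of 17 were higher and 2 lower, with a median of 0.09. Slc1a5, a neutral amino acid exchanger that carries glutamine, read 1.15, 1.43 and 0.09 in brain (mean 0.89 ± 0.71, adjusted p = 0.0128), with array 3 near 0, and 1.29 without it. Slc3a2 (-0.50 ± 0.20, adjusted p = 0.0131) and its partner Slc7a5 (-0.40 ± 0.37, adjusted p = 0.0439) were lower there, at -0.59 each without the third array. With that array left out, 3 of 17 were higher and 3 lower in brain, with a median of 0.0027.

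Urea and ammonia transport held 4 higher genes of 7 in kidney and 0 lower (0 lower also at an unadjusted p below 0.05 by limma), with a median of 0.33. Aqp3, a channel for water, glycerol and urea, read 1.24, 1.01 and 0.98 in kidney (mean 1.07 ± 0.14, adjusted p = 5.09e-05). It was the 1 higher gene of 7, with 0 lower, in brain (1.02 ± 0.18, adjusted p = 0.000109; 0.92 without the third array, when 2 of 7 were higher) and in liver (0.54 ± 0.10, adjusted p = 0.00300), where at an unadjusted p below 0.05 limma found 1 and 3 higher and 0 lower. Rhbg, an ammonia channel, had 0.85 ± 0.06 in kidney (adjusted p = 0.000827), and Slc14a1, a urea transporter, 0.38 ± 0.28 (adjusted p = 0.0217; 2 probes at 0.62 and 0.14).

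Among 16 measured regulators of urea cycle genes, 3 were lower and 2 higher in liver, with a median of -0.01, or 0.11 with lines and columns removed (2 lower, 2 higher). Ppara, a nuclear receptor for fatty acids, read -1.23, -1.71 and -1.34 in liver (mean -1.43 ± 0.25, adjusted p = 2.84e-05), against -0.23 to 0.16 on the 6 other arrays. Cebpa, a C/EBP factor of hepatocytes, had -0.82 ± 0.35 (adjusted p = 0.000933), and Sirt3, a mitochondrial deacetylase, -0.56 ± 0.20 (adjusted p = 0.0307), which with lines and columns removed was -0.46 (adjusted p = 0.0614). Hnf4a, whose factor drives many hepatocyte genes, was at -0.02 in liver and did not pass. In kidney Cebpb (0.77 ± 0.35, adjusted p = 0.00389) and Foxo1 (0.48 ± 0.31, adjusted p = 0.0104) were higher and Klf15 lower (-0.50 ± 0.20, adjusted p = 0.0309), the last lost with lines and columns removed (-0.34, adjusted p = 0.0870). In brain 1 of 16 was higher and 0 lower (2 and 0 at an unadjusted p below 0.05 by limma), Foxa1 at 0.42 ± 0.21 (adjusted p = 0.0171), from 2 probes at -0.05 and 0.88, and 0.47 without the third array.

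**Figure D4:**
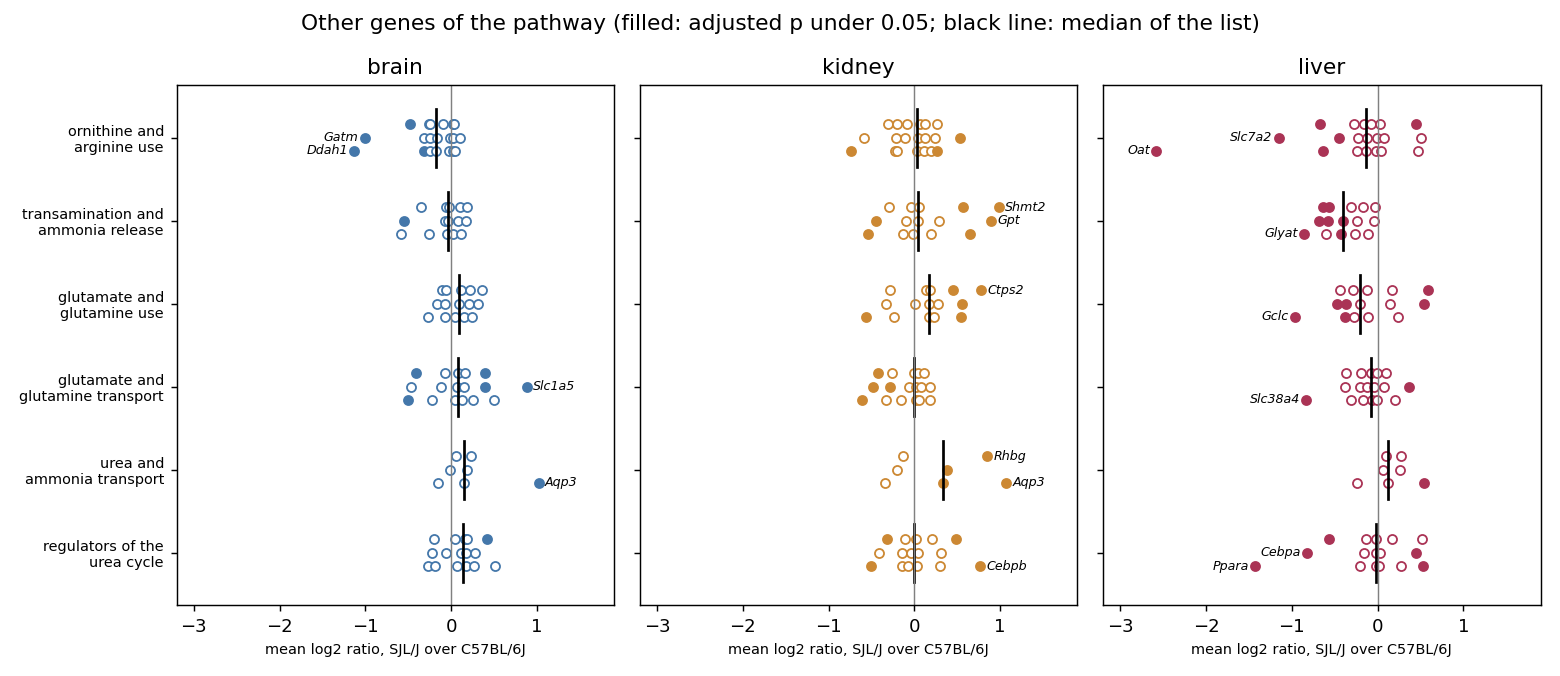
Mean log2 ratio (x axis, SJL/J over C57BL/6J) of each measured gene of 6 pathway lists (rows) in brain, kidney and liver; filled circles have an adjusted p below 0.05 by limma and black lines mark the list's median. Names are given for called genes beyond 0.75 either way. Oat at -2.58 and Ppara at -1.43 in liver lie furthest out, and the liver values of the transamination list, as deposited, are all below 0.

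Hepatocytes divide these tasks by position: those near the portal vein make most urea, and those near the central vein express Glul and Oat. Lists of other genes known for either zone were therefore read in liver beside the members. Of 15 pericentral genes 10 were lower in SJL/J and 0 higher (10 and 0 also at an unadjusted p below 0.05 by limma), with a median of -0.48. Oat is one of them, and beside it stood Cyp2c29 (-1.61 ± 0.38, adjusted p = 6.52e-05; spot at a multiple of 8, -1.29 with lines and columns removed) and Gstm3 (-2.67, -0.43 and -1.60; mean -1.56 ± 1.12, adjusted p = 0.00499). Of 10 periportal genes 5 were lower and 2 higher, with a median of -0.44. With lines and columns removed 4 were lower and 3 higher (median -0.33), and with the print spots shifted 5 lower and 3 higher. The pericentral counts were then 9 lower and 0 higher, and 10 lower and 0 higher. The leading periportal genes were G6pc, the last step of glucose release (-2.73 ± 0.13, adjusted p = 1.94e-06), Igf1 (-0.87 ± 0.60, adjusted p = 0.00525) and Cdh1 (-0.71 ± 0.23, adjusted p = 0.00235). With lines and columns removed Igf1 did not pass (-0.56, adjusted p = 0.05005). Lower genes thus stood in both zones. Among the members, Glul on the pericentral side was lower, and the urea cycle enzymes on the periportal side were split. Otc and Arg1 were lower there, while Cps1 (0.70) and Ass1 (0.45) were higher. The Arg1 call was lost with the print spots shifted and with lines and columns removed. Those of Otc, Arg1 and Ass1 were also lost when certain single liver arrays were left out. The difference between the zones was not tested.

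**Figure D5:**
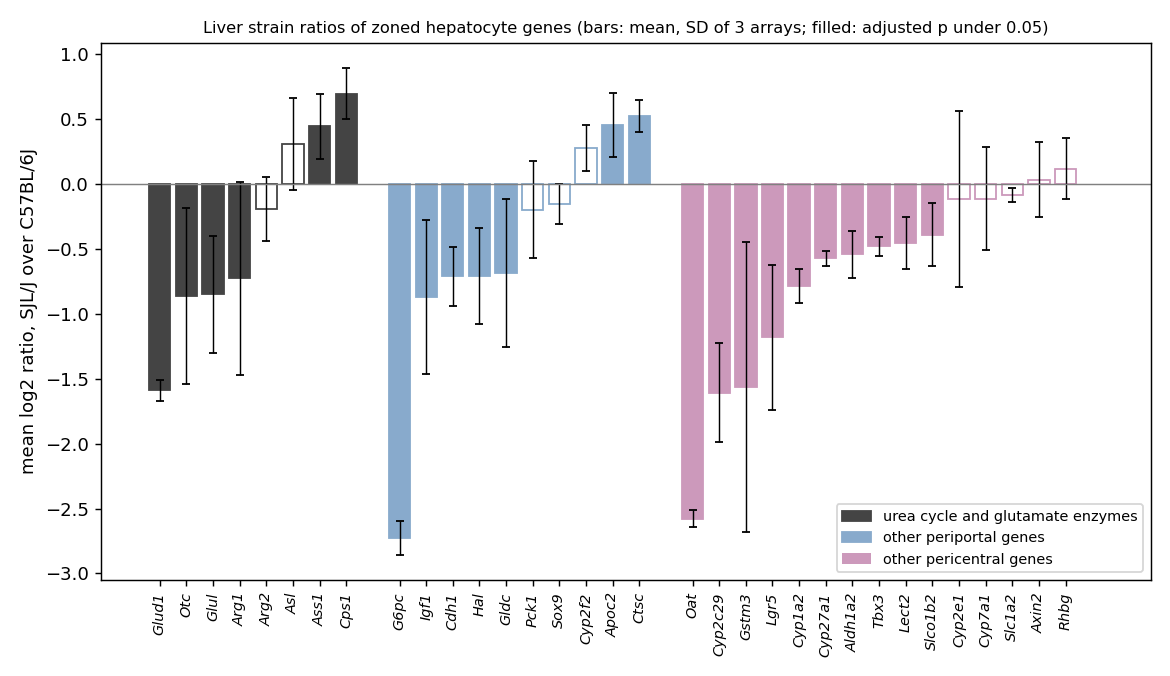
Mean log2 ratio in liver (y axis, SJL/J over C57BL/6J; bars, with the SD of 3 arrays) of the 8 enzymes (black), 10 other periportal genes (blue) and 15 other pericentral genes (pink), each ordered by value; filled bars have an adjusted p below 0.05 by limma. Lower genes appear in each set, from -1.59 for Glud1, -2.73 for G6pc and -2.58 for Oat.

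General hepatocyte markers did not follow the lower members. In liver 9 of 18 were higher in SJL/J and 2 lower, with a median of 0.53, among them Alb at 1.06 ± 0.30 (adjusted p = 0.000368) and Trf at 0.78 ± 0.16 (adjusted p = 0.000473), while Tdo2 was at -1.69 ± 0.33 (adjusted p = 1.01e-05). Markers of Kupffer cells and macrophages held 2 higher of 12 and 0 lower (3 and 0 at an unadjusted p below 0.05 by limma), and those of stellate cells 1 higher and 2 lower of 8. In kidney 4 of 13 proximal tubule markers were higher and 1 lower, and in brain 1 of 10 astrocyte markers was lower and 0 higher (1 and 2 at an unadjusted p below 0.05 by limma). With lines and columns removed 2 of the proximal tubule markers were higher and 2 lower in kidney. No astrocyte marker was called in brain then, or with the print spots shifted. Without the third brain array 1 astrocyte marker was higher and 1 lower. The part of cell composition in the members' ratios was not tested.

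The genes most like the tissue-dependent members were found by the root mean square difference of their ratios over the 9 arrays. Nearest to Cps1 were Chrd (0.15), Cct4 (0.153) and Cdc73 (0.161), each between 0.51 and 0.63 in liver. Nearest to Ass1 were Dtymk (0.114), whose spot is also at a multiple of 8, Ppp1r32 (0.141) and Zfp672 (0.145). Arg2 lay nearest to Sdr42e1 (0.141), Tob2 (0.144) and Amd2 (0.154), with brain means of 0.50 to 0.68. Glud1 lay nearest to Ethe1 (0.230), a mitochondrial sulfur dioxygenase, Gla (0.232) and Hyal1 (0.251), with liver means of -1.61, -1.38 and -1.38.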

How the data were processed

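Log ratios of 23040 spots on 9 arrays were used as deposited. The authors deposited log2 ratios (base and direction inferred, as described above) after processing in R 2.0.0 with limma, per the submitters' processing notes; the normalization steps were not given in the sources used here. The sorted values are identical on all 9 arrays, so the arrays were scaled to 1 distribution. No intensity or depth is known, and the number of arrays limits the precision.

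Of the probes, 16874 had 1 gene symbol, 134 several and 6032 none. Probes of a gene were averaged, giving 15096 genes, and each remaining spot was kept alone, giving 21262 features. Means per tissue, their differences and their dependence on tissue were tested with limma 3.58.1 (lmFit and eBayes, R 4.3.3; 6 residual and 4.06 prior degrees of freedom), with Benjamini-Hochberg adjustment over all features and a cutoff of 0.05. The ratio shared by tissues was tested over the 3 tissue means. The fit was tested on simulated data. Named genes were all members found, up to 3 genes of each list per tissue with the largest mean among those called with 1 sign on all arrays, up to 3 nearest genes, and Nnt; other genes named (hepatocyte markers, Hnf4a) were chosen after their values were seen. The members and lists were chosen with earlier results of these data known. Some genes are in at least 2 lists, so the counts of the lists are not independent. Among them are Oat, Gldc, Rhbg and Slc1a2, and, with the marker lists, Pck1, Sox9, Hnf4a, Cyp2e1, Gad1, Gad2 and Slc17a7.

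Same-numbered arrays of different tissues did not deviate together (correlations of -0.09 to 0.06), so the numbers do not pair them. Alternatives were the fit per spot, named genes only, spots at multiples of 8 left out or shifted to the median of the others (the shift was chosen after seeing the data), medians of print lines of 24 spots and of columns removed, arrays centred, array weights, robust eBayes, tissues fitted alone, the replicate block, a threshold of 0.01, and each array left out.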

Additional observations from a re-analysis of the deposited data

Results flagged for a closer look

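Strain ratios that differed between tissues by the limma test of the difference itself are listed here with its adjusted p; the size is the first tissue's log2 ratio minus the second's. For Cps1 the difference was 0.85 between liver and kidney (adjusted p = 0.00565) and 0.74 between liver and brain (adjusted p = 0.0165), with all 3 liver arrays above all 6 others. For Glud1 it was -1.42 between liver and kidney (adjusted p = 0.00349) and -1.30 between liver and brain (adjusted p = 0.00874), with all 3 liver arrays below all 6 others. For Ass1 it was 0.78 between liver and kidney (adjusted p = 0.00593), without overlap of the arrays, and 0.60 with the print spots shifted. For Arg2 it was -0.93 between liver and brain (adjusted p = 0.00986), without overlap. For Otc it was -0.92 between liver and kidney (adjusted p = 0.0420), without overlap.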

How the results depend on the processing

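Under all alternatives run for them, Cps1, Glud1 and Glul in liver and Arg2 in brain kept their direction and call, with ranges of 0.59 to 0.79, -1.63 to -1.44, -0.99 to -0.59 and 0.61 to 1.03. So did the differences of Cps1, Glud1 and Ass1 between liver and kidney and of Glud1 and Arg2 between liver and brain. The difference of Cps1 between liver and brain was lost without the second brain array (adjusted p = 0.0541), without the first liver array (adjusted p = 0.0615) and at the threshold of 0.01 (adjusted p = 0.0165). Ass1 in kidney reversed from -0.34 to 0.063 with lines and columns removed and to 0.062 with spots at multiples of 8 shifted.

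Leaving out the spots at multiples of 8 also leaves out 4 members, and then 0 were higher in brain, 0 lower in kidney, 2 lower and 1 higher in liver, and 2 depended on tissue. With lines and columns removed, and likewise with the spots shifted, 0 were lower and 1 higher in kidney, and Arg1 was no longer called in liver. With each tissue fitted alone 2 were lower and 1 higher in kidney, and Arg1 was no longer called in liver. Differences between tissues cannot be had from that fit. With array weights 1 was lower in brain, 1 higher in kidney and 1 differed between kidney and brain. At a threshold of 0.01, 0 were lower in kidney, 1 was higher in liver and 2 depended on tissue. Arg1 was then no longer called in liver. The differences of Otc between liver and kidney and of Cps1 between liver and brain were lost as well. With 1 array left out, the counts ranged from 0 to 1 lower in brain, 0 to 1 differing between kidney and brain, 0 to 2 lower in kidney, 2 to 4 lower in liver and 1 to 2 higher in liver. With the replicate block the counts were those reported (0 lower and 1 higher in brain, 1 lower and 0 higher in kidney, 4 lower and 2 higher in liver), except that 3 in place of 4 differed between liver and kidney, since Otc was lost. Unless the wording above shows it, the cause was not tested. Spread between arrays limits Asl, Otc and Arg1 in liver, and signal over background is unknown.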
